A study of Homo sapiens with 12 samples.

Results

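The genes described here are 36 genes of the unfolded protein response and the amino acid stress response, chosen by symbol from a fixed list and found in both deposited tables among 23708 gene symbols. They fall into 18 genes of the ATF4 type (stress transcription factors, amino acid synthesis and amino acid transport) and 18 genes of the endoplasmic reticulum (ER). Their RNA was sequenced from Granta-519 cells and JeKo-1 cells, established human lines of mantle cell lymphoma, a cancer of B cells that is typically driven by a translocation of the cyclin D1 gene CCND1. Each line had 3 libraries infected with lentivirus carrying an shRNA that silences cyclin D1 (shCycD1) and 3 carrying a control shRNA (shCtrl), all after puromycin selection. The labels give 1 shRNA name for each arm and no time after infection, and the 3 libraries of each of the 4 groups are called biological replicates. The questions were how these genes changed with cyclin D1 silencing in each line, and whether the ATF4-type and the ER genes changed in the same way.

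Unfolded proteins in the ER are sensed by the kinases PERK and IRE1 (gene ERN1) and by the membrane-bound factor ATF6. PERK phosphorylates the initiation factor eIF2 on ER stress, and another kinase, GCN2, does so on amino acid shortage. This lowers general translation and raises translation of ATF4. The factor ATF4 switches on genes of amino acid supply and, through DDIT3 (CHOP), of cell death. The branches of IRE1 and ATF6 switch on ER chaperones, disulfide isomerases and the machinery that removes misfolded proteins, which in the B lineage is best known from plasma cells.

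Promoter windows of these genes are shown because the branches act through different DNA words, and the values below are given beside them. The windows run from 250 bases before to 50 bases after the start site, are from RefSeq on GRCh38.p14, and were found for 33 of the 36 genes. The words searched on both strands were the CARE of ATF4-type factors (TGATGNAA), the ER stress elements ERSE (CCAAT and CCACG with 9 bases between them) and ERSE-II (ATTGG and CCACG with 1 base between them), and the UPRE of XBP1 (TGACGTGG). The 6 windows below are examples of ATF4-type and ER genes with a word, and HYOU1, PDIA6 and others of the list carry words too. They are written from 5′ to 3′ on the strand of the gene, and the capitals mark the matched word, which reads as the reverse complement where it lies on the other strand.
CHAC1, chr15:40953221-40953520, plus strand: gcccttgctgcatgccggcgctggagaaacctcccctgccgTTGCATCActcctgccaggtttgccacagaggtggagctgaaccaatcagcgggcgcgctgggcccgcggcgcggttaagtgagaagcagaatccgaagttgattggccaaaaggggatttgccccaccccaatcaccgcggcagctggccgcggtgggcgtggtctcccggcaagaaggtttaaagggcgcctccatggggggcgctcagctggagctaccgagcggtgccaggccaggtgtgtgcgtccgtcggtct
ASNS, chr7:97872359-97872658, minus strand: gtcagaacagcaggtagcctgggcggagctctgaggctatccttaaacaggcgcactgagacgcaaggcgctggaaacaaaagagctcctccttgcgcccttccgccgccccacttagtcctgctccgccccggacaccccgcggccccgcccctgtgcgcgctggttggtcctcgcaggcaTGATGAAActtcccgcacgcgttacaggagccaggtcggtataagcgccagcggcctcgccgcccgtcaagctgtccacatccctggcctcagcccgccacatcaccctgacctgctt
HERPUD1, chr16:56931892-56932191, plus strand: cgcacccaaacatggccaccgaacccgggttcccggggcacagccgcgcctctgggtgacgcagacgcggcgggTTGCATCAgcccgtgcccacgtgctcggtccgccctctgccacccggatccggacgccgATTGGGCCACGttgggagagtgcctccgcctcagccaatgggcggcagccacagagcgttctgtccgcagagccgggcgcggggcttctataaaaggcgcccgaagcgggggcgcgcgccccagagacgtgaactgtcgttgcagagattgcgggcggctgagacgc
HSPA5, chr9:125241294-125241593, minus strand: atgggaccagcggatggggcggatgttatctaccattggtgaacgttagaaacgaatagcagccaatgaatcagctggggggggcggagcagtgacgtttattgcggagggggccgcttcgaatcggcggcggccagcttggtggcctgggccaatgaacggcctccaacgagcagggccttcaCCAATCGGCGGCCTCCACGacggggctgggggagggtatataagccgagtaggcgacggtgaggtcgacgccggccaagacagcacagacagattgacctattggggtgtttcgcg
HSP90B1, chr12:103930160-103930459, plus strand: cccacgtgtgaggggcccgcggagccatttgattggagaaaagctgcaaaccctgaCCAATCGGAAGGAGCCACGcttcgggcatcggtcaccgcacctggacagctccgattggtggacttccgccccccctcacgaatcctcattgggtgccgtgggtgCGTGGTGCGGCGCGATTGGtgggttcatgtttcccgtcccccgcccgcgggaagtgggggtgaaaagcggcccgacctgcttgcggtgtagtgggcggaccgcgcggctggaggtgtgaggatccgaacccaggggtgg
CALR, chr19:12938359-12938658, plus strand: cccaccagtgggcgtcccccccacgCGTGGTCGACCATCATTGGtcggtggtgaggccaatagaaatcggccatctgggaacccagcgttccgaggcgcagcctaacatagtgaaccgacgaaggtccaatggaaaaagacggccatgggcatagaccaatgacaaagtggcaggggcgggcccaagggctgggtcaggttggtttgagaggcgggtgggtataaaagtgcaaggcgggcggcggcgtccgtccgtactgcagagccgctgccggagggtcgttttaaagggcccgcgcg

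In these windows CHAC1 has a CARE match that starts 209 bases before the start site, and ASNS has one at 68 bases. HERPUD1, an ER gene, has a CARE match at 176 bases and an ERSE-II match at 117 bases. HSPA5 has an ERSE match at 66 bases, HSP90B1 has ERSE matches at 194 and 89 bases, and CALR has one at 225 bases. CARE matched in 6 of 15 ATF4-type genes with a window (ATF3, CEBPG, CHAC1, ASNS, SLC3A2 and SLC7A1) and in 1 of 18 ER genes (HERPUD1), beside 4.46% of 27305 symbols in the same table. ERSE matched in 6 of 18 ER genes (HSPA5, HSP90B1, CALR, CANX, PDIA6 and CRELD2) and in 0 of 15 ATF4-type genes, beside 0.0916% of symbols. ERSE-II matched in HYOU1, SDF2L1 and HERPUD1, beside 0.0696% of symbols, and UPRE matched in HYOU1 alone of the 33 genes, where it overlaps an ERSE-II match, beside 0.927% of symbols. Windows of the ATF4-type genes ATF4, DDIT3, CEBPB, TRIB3, PSAT1, PHGDH, CTH, MTHFD2 and SLC7A5 held none of the 4 words. Nor did those of the ER genes ERN1, ATF6, DNAJB9, DNAJC3, DNAJB11, PDIA4, SEL1L, EDEM1 and MANF. A match describes letters in a window and is not evidence that a factor bound there. The genes were listed as members of these pathways and some have several windows, so these shares describe the lists and test nothing.

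CCND1 itself checks the labels. It stood at 213.1, 298.0 and 291.6 RPKM in the shCycD1 libraries of Granta-519, against 924.5, 1043.5 and 873.5 RPKM in shCtrl. The JeKo-1 values were 65.41, 64.77 and 67.43 RPKM in shCycD1, against 394.8, 330.1 and 315.3 RPKM in shCtrl. Within a group, pairs of libraries had an r across genes between 0.981 and 0.988 (Granta-519) or between 0.968 and 0.974 (JeKo-1). RPKM (reads scaled to gene length and to the reads of the library) carries no read depth, and the depth is not given in the sources used here. The JeKo-1 table was read as a natural log, as the Granta-519 table was, but its log base is not settled. Read as log2, the JeKo-1 changes would be smaller, though every call within JeKo-1 on a gene of the list was the same, and 2 of 12 called differences between the lines were lost. Levels are not compared between the tables or between genes, because the Granta-519 values follow genomic span and the JeKo-1 values another length. Summed RPKM of 9 B-cell markers was 2188.4 to 2271.9 in shCycD1 and 2400.1 to 2517.6 in shCtrl of Granta-519, and 1376.1 to 1553.8 in shCycD1 and 988.1 to 1124.9 in shCtrl of JeKo-1. T and NK cell markers summed to 4.017 RPKM or less in every library. Myeloid markers summed to 55.32 to 60.54 RPKM in shCycD1 and 58.86 to 65.74 RPKM in shCtrl of Granta-519, most of it CSF1R, and to 4.599 RPKM or less in JeKo-1. Epithelial, kidney and fibroblast markers summed to 538.4 to 622.5 RPKM in shCycD1 and 562.9 to 636.0 RPKM in shCtrl of Granta-519, and to 153.2 to 178.3 RPKM in shCycD1 and 143.2 to 173.6 RPKM in shCtrl of JeKo-1. VIM, which many cell types express, made up most of these sums, and 6 of the 9 genes were under 1 RPKM in every library of each line. CD5 was the only B-cell marker of the 9 under 1 RPKM in every library of a line, in Granta-519.

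Changes are log2 differences on the log2(RPKM + 0.5) scale, shCycD1 minus shCtrl, with standard errors (SE), and a gene was called with a limma adjusted p under 0.05 over all genes tested in that line. In Granta-519, 12 of the 35 tested genes of the list rose and 5 fell. Of all 12668 tested genes 22.4% rose and 18.2% fell, which is 40.6% in either direction. In JeKo-1, 10 of 36 rose and 15 fell, beside 36.7% and 27.8% of 11866 genes (64.6% in either direction). The ATF4-type genes split in both lines, with 6 rising and 4 falling of 17 in Granta-519, and 8 rising and 6 falling of 18 in JeKo-1. Among the 18 ER genes 6 rose and 1 fell in Granta-519, whereas 2 rose and 9 fell in JeKo-1. In Granta-519 the median change was 0.07 for the ATF4-type and 0.15 for the ER genes, in JeKo-1 it was 0.19 and -0.26, beside 0.03 and 0.09 for all genes. After scaling to 49 spike-in RNAs the median over all genes was 0.74 in Granta-519. With it 60.8% of all tested genes rose in Granta-519, as did 13 ATF4-type and 15 ER genes, while 0 of the list fell. The falls given for Granta-519 are therefore falls relative to the other genes. Spike-in levels of Granta-519 (log2, against the mean of its libraries) were 0.134, 0.838 and 0.189 in shCtrl, and -0.474, -0.254 and -0.432 in shCycD1. Replicate 2 of shCtrl thus stood apart from the other controls, and the scaling was not repeated without it. In JeKo-1 the same scaling gave a median of 0.03 over all genes and left 3 ATF4-type genes rising and 2 falling, and 2 ER genes rising and 1 falling. Spike-in levels of JeKo-1 ran from -0.377 to 0.241 in shCtrl and from -0.336 to 0.425 in shCycD1. The scaling carries this spread within groups into the values.

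The shCycD1 and shCtrl libraries did not overlap for 20 of the 35 genes in Granta-519 (57.1%, beside 54% of all tested genes) and for 26 of 36 in JeKo-1 (72.2%, beside 69.6%). These shares lie near those of all genes. Of the 35 genes tested in both lines, 7 rose in both (20.0%, beside 14.8% of 10653 genes). They were ATF4, DDIT3, CEBPB, CHAC1, TRIB3, ERN1 and HERPUD1. PSAT1, PHGDH, SHMT2 and DNAJB11 fell in both (4 of 35, 11.4%, beside 13.1%), although none of them fell in Granta-519 with spike-in scaling. SLC7A11 and HSPA5 rose in Granta-519 and fell in JeKo-1 (2 of 35, 5.71%, beside 2.99% of genes with opposite calls). In RNA from whole cultures, fewer cells of a type and less RNA per cell cannot be told apart.

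**Figure D1:**
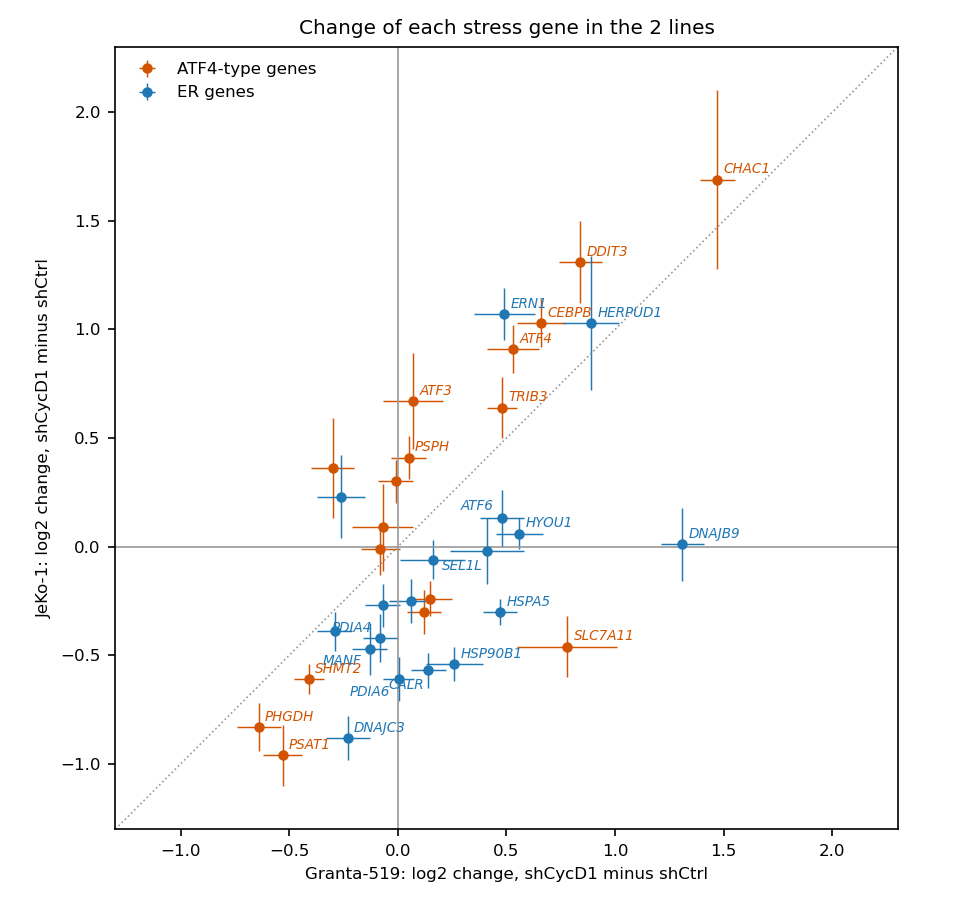
Each point is 1 of the 35 stress genes tested in both lines, with its log2 change (shCycD1 minus shCtrl) in Granta-519 on the horizontal axis, in JeKo-1 on the vertical axis, and bars of 1 SE. CHAC1 stands at 1.47 and 1.69, while ER genes such as HSPA5 (0.47 and -0.30) lie under the dotted line of equal change; with spike-in scaling the Granta-519 falls of PSAT1 and SHMT2 turned to 0.16 and 0.36.

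Of the 5 stress transcription factors, 3 rose in Granta-519 (all 5 with spike-in scaling) and 4 in JeKo-1 (2 with it). Of all genes tested 22.4% rose in Granta-519 (7702 of 12668 with spike-in scaling) and 36.7% in JeKo-1 (1707 of 11866 with it). ATF4, the central factor of the amino acid response, stood at 1980.5, 1593.0 and 1778.3 RPKM in Granta-519 shCycD1, against 1155.1, 1417.1 and 1146.6 RPKM in shCtrl. In JeKo-1 libraries it had 323.6, 300.3 and 322.0 RPKM in shCycD1, against 191.1, 143.1 and 173.3 RPKM in shCtrl. All silenced libraries were above all control libraries in both lines. Its log2 change was 0.53 ± 0.12 (limma adjusted p = 0.0135) in Granta-519 and 0.91 ± 0.11 (limma adjusted p = 0.000308) in JeKo-1. DDIT3, which encodes the pro-apoptotic factor CHOP, stood at 83.46, 69.83 and 78.73 RPKM in Granta-519 shCycD1, against 38.58, 45.5 and 44.92 RPKM in shCtrl. In JeKo-1 DDIT3 stood at 103.3, 89.48 and 113.8 RPKM in shCycD1, against 54.86, 32.49 and 37.8 RPKM in shCtrl. The groups were again apart, with log2 changes of 0.84 ± 0.10 (limma adjusted p = 0.00099) and 1.31 ± 0.19 (limma adjusted p = 0.000752). CEBPB, a bZIP factor that pairs with CHOP and ATF4, averaged 28.17 ± 4.326 RPKM in Granta-519 shCycD1 and 17.56 ± 0.5679 RPKM in shCtrl (SD, n = 3 each). In JeKo-1 it averaged 5.412 ± 0.5528 RPKM in shCycD1 and 2.385 ± 0.1564 RPKM in shCtrl. CEBPB rose by 0.66 ± 0.11 (limma adjusted p = 0.00425) and by 1.03 ± 0.11 (limma adjusted p = 0.000144). The ATF4 call in Granta-519 was lost without shCtrl replicate 1 (0.48) or shCycD1 replicate 1 (0.45), and in JeKo-1 with spike-in scaling (0.84).

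ATF3 and CEBPG were not called in Granta-519, except with spike-in scaling, where both were called higher (0.70 and 0.69). ATF3, a repressor-type bZIP factor induced by many stresses, stood at 2.143, 2.946 and 2.23 RPKM in Granta-519 shCycD1, against 1.975, 2.246 and 2.662 RPKM in shCtrl. These groups overlapped (log2 change 0.07 ± 0.14, limma adjusted p = 0.725). In JeKo-1 ATF3 stood at 2.558, 2.299 and 3.456 RPKM in shCycD1, against 2.261, 1.194 and 1.298 RPKM in shCtrl. It rose there by 0.67 ± 0.22 (limma adjusted p = 0.028), with the lowest silenced library just above the highest control. That call was lost without shCtrl replicate 2 (0.54) or 3 (0.58), without shCycD1 replicate 1 (0.71) or 3 (0.52), without a low-value filter (0.67), with quantile normalization (0.47) and with spike-in scaling (0.60). CEBPG, another partner of ATF4, was at -0.08 ± 0.09 in Granta-519 (limma adjusted p = 0.518) and -0.01 ± 0.12 in JeKo-1 (limma adjusted p = 0.956).

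CHAC1 and TRIB3, both targets of ATF4 and CHOP, rose in both lines. CHAC1, which degrades glutathione, stood at 31.91, 29.54 and 31.12 RPKM in Granta-519 shCycD1, against 11.48, 10.21 and 10.68 RPKM in shCtrl. JeKo-1 libraries stood at 12.51, 5.87 and 7.596 RPKM in shCycD1, against 4.583, 1.441 and 1.54 RPKM in shCtrl. The replicates of Granta-519 were tight, and those of JeKo-1 spread widely, with shCtrl replicate 1 and shCycD1 replicate 1 above the others of their groups. The log2 changes were 1.47 ± 0.08 (limma adjusted p = 0.000148) and 1.69 ± 0.41 (limma adjusted p = 0.00873), the highest in the list in each line. TRIB3, a pseudokinase that restrains ATF4 signalling, stood at 8.161, 8.449 and 8.529 RPKM in Granta-519 shCycD1, against 5.61, 6.007 and 6.025 RPKM in shCtrl. The JeKo-1 values were 25.99, 20.55 and 26.26 RPKM in shCycD1, against 18.31, 13.72 and 14.12 RPKM in shCtrl. TRIB3 rose by 0.48 ± 0.07 (limma adjusted p = 0.00293) and by 0.64 ± 0.14 (limma adjusted p = 0.00577), without overlap in either line. The JeKo-1 call on TRIB3 was lost with a correction for GC content (0.19) and with spike-in scaling (0.58).

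**Figure D2:**
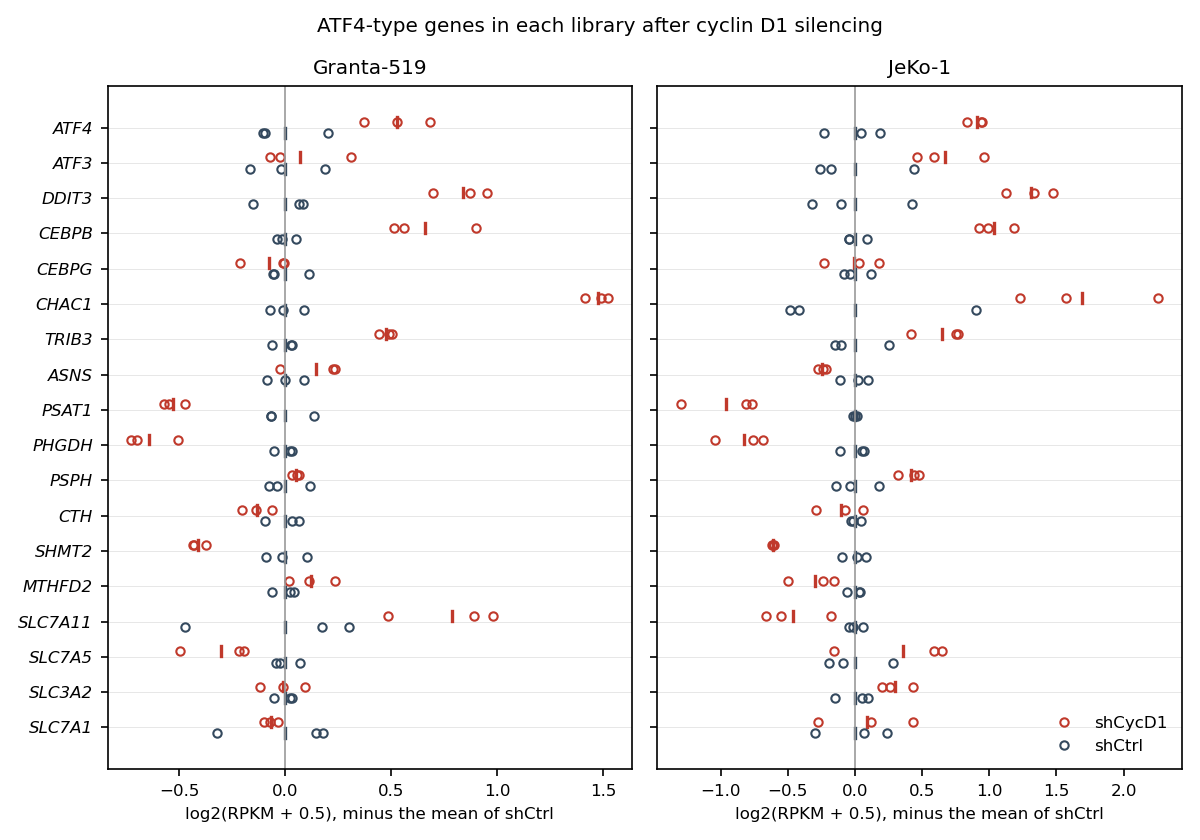
The 18 ATF4-type genes are plotted in each library as log2(RPKM + 0.5) minus the mean of the shCtrl libraries of that line, with circles for libraries and bars for group means. All silenced circles of ATF4, DDIT3, CEBPB, CHAC1 and TRIB3 lie right of all control circles in both lines, and those of PSAT1, PHGDH and SHMT2 lie left, although with spike-in scaling PSAT1 (0.16) and SHMT2 (0.36) turned positive in Granta-519.

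PHGDH and PSAT1, genes of serine synthesis that ATF4 is known to induce, fell in both lines, in Granta-519 not with spike-in scaling. PHGDH, the first enzyme of the pathway, stood at 1.366, 1.334 and 1.636 RPKM in Granta-519 shCycD1, against 2.426, 2.595 and 2.577 RPKM in shCtrl. In JeKo-1 libraries it had 15.56, 20.09 and 19.08 RPKM in shCycD1, against 34.12, 33.83 and 30.12 RPKM in shCtrl. PHGDH fell by 0.64 ± 0.10 on the log2 scale (limma adjusted p = 0.00243) and by 0.83 ± 0.11 (limma adjusted p = 0.000537), with the groups apart in both lines. PSAT1, the second enzyme, stood at 3.474, 3.531 and 3.753 RPKM in Granta-519 shCycD1, against 5.138, 5.129 and 5.973 RPKM in shCtrl. In JeKo-1 PSAT1 stood at 18.45, 13.05 and 18.97 RPKM in shCycD1, against 32.3, 32.79 and 33.09 RPKM in shCtrl. Every silenced library was under every control, and PSAT1 fell by 0.53 ± 0.09 (limma adjusted p = 0.00439) and by 0.96 ± 0.14 (limma adjusted p = 0.000807). With spike-in scaling in Granta-519 PSAT1 was at 0.16 and PHGDH at -0.04, and neither was called. PSPH, the last enzyme, was at 0.05 ± 0.08 in Granta-519 (limma adjusted p = 0.662; called higher with spike-in scaling, at 0.77), while in JeKo-1 it rose by 0.41 ± 0.10 (limma adjusted p = 0.0101). PSPH averaged 17.42 ± 0.9961 RPKM in JeKo-1 shCycD1 and 12.99 ± 1.553 RPKM in shCtrl (SD, n = 3 each), and its call was lost with spike-in scaling (0.35). The genes of the pathway thus split in JeKo-1, with PHGDH and PSAT1 lower and PSPH higher.

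SHMT2 and MTHFD2 carry serine carbon into mitochondrial folate metabolism. SHMT2 stood at 206.7, 206.6 and 215.5 RPKM in Granta-519 shCycD1, against 276.1, 300.0 and 262.3 RPKM in shCtrl. JeKo-1 libraries stood at 291.7, 294.7 and 292.8 RPKM in shCycD1, against 473.8, 451.8 and 418.2 RPKM in shCtrl. SHMT2 fell by 0.41 ± 0.07 (limma adjusted p = 0.00487) and by 0.61 ± 0.07 (limma adjusted p = 0.000195), with silenced libraries that lay close together in both lines. With spike-in scaling it was at 0.36 in Granta-519 and at -0.67 in JeKo-1, called in neither. MTHFD2 was at 0.12 ± 0.08 in Granta-519 (limma adjusted p = 0.254; called higher with spike-in scaling, at 0.89) and fell by 0.30 ± 0.10 in JeKo-1 (limma adjusted p = 0.0311). In JeKo-1 MTHFD2 was not called with quantile normalization (-0.19), the GC correction (-0.13) or spike-in scaling (-0.36), nor without shCtrl replicate 1 (-0.28) or 3 (-0.28) or shCycD1 replicate 2 (-0.20).

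ASNS, asparagine synthetase, is a standard readout of ATF4 and was not called in Granta-519, though it was called higher there with spike-in scaling (0.91) and with library weights (0.26). It averaged 31.92 ± 3.188 RPKM in Granta-519 shCycD1 and 28.75 ± 1.79 RPKM in shCtrl (SD, n = 3 each; log2 change 0.15 ± 0.10, limma adjusted p = 0.268). The JeKo-1 values were 32.9, 31.56 and 32.52 RPKM in shCycD1, against 40.98, 38.98 and 35.43 RPKM in shCtrl. ASNS fell there by 0.24 ± 0.08 (limma adjusted p = 0.0263), a small change with groups apart. The call was lost with spike-in scaling (-0.31) and without any 1 library other than shCtrl replicate 3 (-0.26 to -0.20). CTH, which makes cysteine from cystathionine, lay under the minimum for testing in Granta-519, at 0.119 to 0.1825 RPKM in shCycD1 and 0.1673 to 0.2446 RPKM in shCtrl, and was at -0.10 ± 0.12 in JeKo-1 (limma adjusted p = 0.464; called lower with quantile normalization, at -0.34).

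The transporter genes went separate ways. SLC7A11, the cystine carrier, stood at 8.984, 9.596 and 6.663 RPKM in Granta-519 shCycD1, against 5.802, 3.191 and 5.266 RPKM in shCtrl. In JeKo-1 libraries it had 1.082, 0.9649 and 1.545 RPKM in shCycD1, against 1.746, 1.908 and 1.794 RPKM in shCtrl. The groups were apart in both lines and in opposite directions. SLC7A11 rose by 0.78 ± 0.23 in Granta-519 (limma adjusted p = 0.0312) and fell by 0.46 ± 0.14 in JeKo-1 (limma adjusted p = 0.0216). In Granta-519 the gene was not called when the filter on low values was dropped (0.78) or shCycD1 replicate 1 (0.73) or 2 (0.69) was left out. The JeKo-1 call was lost with the GC correction (-0.11), spike-in scaling (-0.51) or a joint fit of both lines (-0.46), and without shCtrl replicate 2 (-0.43) or 3 (-0.47) or shCycD1 replicate 1 (-0.42) or 2 (-0.36). SLC7A5, the large neutral amino acid carrier, fell by 0.30 ± 0.10 in Granta-519 (limma adjusted p = 0.0451) and was at 0.36 ± 0.23 in JeKo-1 (limma adjusted p = 0.202). The Granta-519 call was lost without any 1 library other than shCycD1 replicate 2 (-0.35 to -0.21), without a low-value filter, with a joint fit (-0.30 in each), and turned to 0.46, not called, with spike-in scaling. In JeKo-1 SLC7A5 was called higher without shCycD1 replicate 2 (0.62), the library at 53.31 RPKM beside 93.57 and 89.63 RPKM in the other two.

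SLC3A2, the heavy chain that SLC7A5 and SLC7A11 share, was at -0.01 ± 0.08 in Granta-519 (limma adjusted p = 0.923; called higher with spike-in scaling, at 0.75), while it rose in JeKo-1 by 0.30 ± 0.10 (limma adjusted p = 0.0287). That JeKo-1 call was lost without shCtrl replicate 2 (0.22) or shCycD1 replicate 1 (0.31) or 3 (0.23) and with spike-in scaling (0.23), and the value was -0.06 with the GC correction. SLC7A1, the arginine and lysine carrier, was called in neither line, at -0.07 ± 0.14 in Granta-519 (limma adjusted p = 0.723) and 0.09 ± 0.20 in JeKo-1 (limma adjusted p = 0.717). Without shCtrl replicate 2 (-0.23) and with library weights (-0.21) it was called lower in Granta-519, and with spike-in scaling higher (0.68). Of the genes of amino acid synthesis and folate metabolism, 0 of 6 tested rose and 3 fell in Granta-519, whereas with spike-in scaling 3 rose (ASNS, PSPH and MTHFD2) and 0 fell. In JeKo-1 1 of 7 rose and 5 fell (0 and 2 with spike-in scaling). Of the 7 factors and effectors, 5 rose in Granta-519 (7 with spike-in scaling), 6 rose in JeKo-1 (3 with it), and 0 fell in either line. Among all tested genes of Granta-519, rises made up 22.4% (60.8% with spike-in scaling) and falls 18.2% (1.16% with it). The JeKo-1 background was 36.7% for rises (14.4% with spike-in scaling) and 27.8% for falls (11.7% with it).

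Of the ER sensors, ERN1 rose in both lines. ERN1 encodes IRE1, the kinase and RNase that splices XBP1, and stood at 1.721, 2.478 and 2.166 RPKM in Granta-519 shCycD1, against 1.428, 1.16 and 1.48 RPKM in shCtrl. JeKo-1 libraries stood at 4.446, 4.198 and 5.512 RPKM in shCycD1, against 1.934, 2.133 and 1.855 RPKM in shCtrl. The JeKo-1 groups were far apart, and the log2 changes were 0.49 ± 0.14 (limma adjusted p = 0.0267) and 1.07 ± 0.12 (limma adjusted p = 0.000231). The Granta-519 call was lost without shCtrl replicate 1 (0.52) or 2 (0.41) or shCycD1 replicate 2 (0.40) or 3 (0.47). ATF6 stood at 2.114, 2.468 and 2.03 RPKM in Granta-519 shCycD1, against 1.424, 1.347 and 1.546 RPKM in shCtrl. It rose by 0.48 ± 0.10 there (limma adjusted p = 0.00925) and was at 0.13 ± 0.13 in JeKo-1 (limma adjusted p = 0.435), where it was called higher with the GC correction (0.30).

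Of the 6 ER chaperones, 2 rose and 0 fell in Granta-519, and 0 rose and 3 fell in JeKo-1. With spike-in scaling 5 rose in Granta-519, with HSP90B1 (1.03), CALR (0.91) and CANX (0.83) beside HSPA5 and HYOU1, and 0 fell in JeKo-1. Of all genes tested 22.4% rose in Granta-519 (7702 of 12668 with spike-in scaling), and 27.8% fell in JeKo-1 (1394 of 11866 with it). HSPA5, which encodes BiP, the chaperone that also holds the sensors inactive, stood at 717.8, 648.9 and 691.5 RPKM in Granta-519 shCycD1, against 467.5, 502.3 and 514.6 RPKM in shCtrl. The JeKo-1 values were 101.0, 109.0 and 106.0 RPKM in shCycD1, against 133.7, 126.9 and 129.5 RPKM in shCtrl. All silenced libraries were above the controls in Granta-519 and under them in JeKo-1. HSPA5 rose by 0.47 ± 0.08 (limma adjusted p = 0.00316) in Granta-519 and fell by 0.30 ± 0.06 (limma adjusted p = 0.00425) in JeKo-1, where the call was lost with quantile normalization (-0.16) and spike-in scaling (-0.36). HYOU1, a chaperone of the HSP70 type, stood at 248.5, 244.7 and 231.9 RPKM in Granta-519 shCycD1, against 171.6, 139.2 and 185.5 RPKM in shCtrl. It rose by 0.56 ± 0.11 in Granta-519 (limma adjusted p = 0.00814) and was at 0.06 ± 0.07 in JeKo-1 (limma adjusted p = 0.476), where it was called lower with the GC correction (-0.24). HYOU1 therefore had no call in JeKo-1 unless values were corrected for GC content.

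HSP90B1, which encodes the ER form of HSP90, stood at 273.9, 259.4 and 318.3 RPKM in Granta-519 shCycD1, against 210.7, 223.3 and 280.2 RPKM in shCtrl. In JeKo-1 libraries it had 119.1, 135.4 and 141.0 RPKM in shCycD1, against 193.0, 184.0 and 196.6 RPKM in shCtrl. The groups overlapped in Granta-519 and were apart in JeKo-1. HSP90B1 was at 0.26 ± 0.13 in Granta-519 (limma adjusted p = 0.156; called higher without shCtrl replicate 3, at 0.38, and with library weights, at 0.43) and fell by 0.54 ± 0.08 in JeKo-1 (limma adjusted p = 0.000873). CALR, the lectin chaperone calreticulin, stood at 1012.8, 928.3 and 1055.5 RPKM in Granta-519 shCycD1, against 868.9, 956.6 and 893.7 RPKM in shCtrl. In JeKo-1 CALR stood at 222.6, 243.2 and 220.3 RPKM in shCycD1, against 362.9, 344.5 and 311.9 RPKM in shCtrl. Its groups too overlapped only in Granta-519, with 0.14 ± 0.08 there (limma adjusted p = 0.212; called higher with quantile normalization, at 0.16, and with library weights, at 0.22) and a fall by 0.57 ± 0.08 in JeKo-1 (limma adjusted p = 0.000627). CANX, the membrane-bound partner of CALR, was at 0.06 ± 0.10 in Granta-519 (limma adjusted p = 0.668) and -0.25 ± 0.10 in JeKo-1 (limma adjusted p = 0.0556). In JeKo-1 CANX was called lower without shCtrl replicate 1 (-0.31). SDF2L1, a subunit of an ER chaperone complex, was at -0.26 ± 0.11 in Granta-519 (limma adjusted p = 0.1) and 0.23 ± 0.19 in JeKo-1 (limma adjusted p = 0.32). It was called lower in Granta-519 without shCtrl replicate 3 (-0.37), with library weights (-0.39) and with the GC correction (-0.28), called lower in JeKo-1 with the GC correction (-0.39), and at 0.50 in Granta-519 with spike-in scaling.

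**Figure D3:**
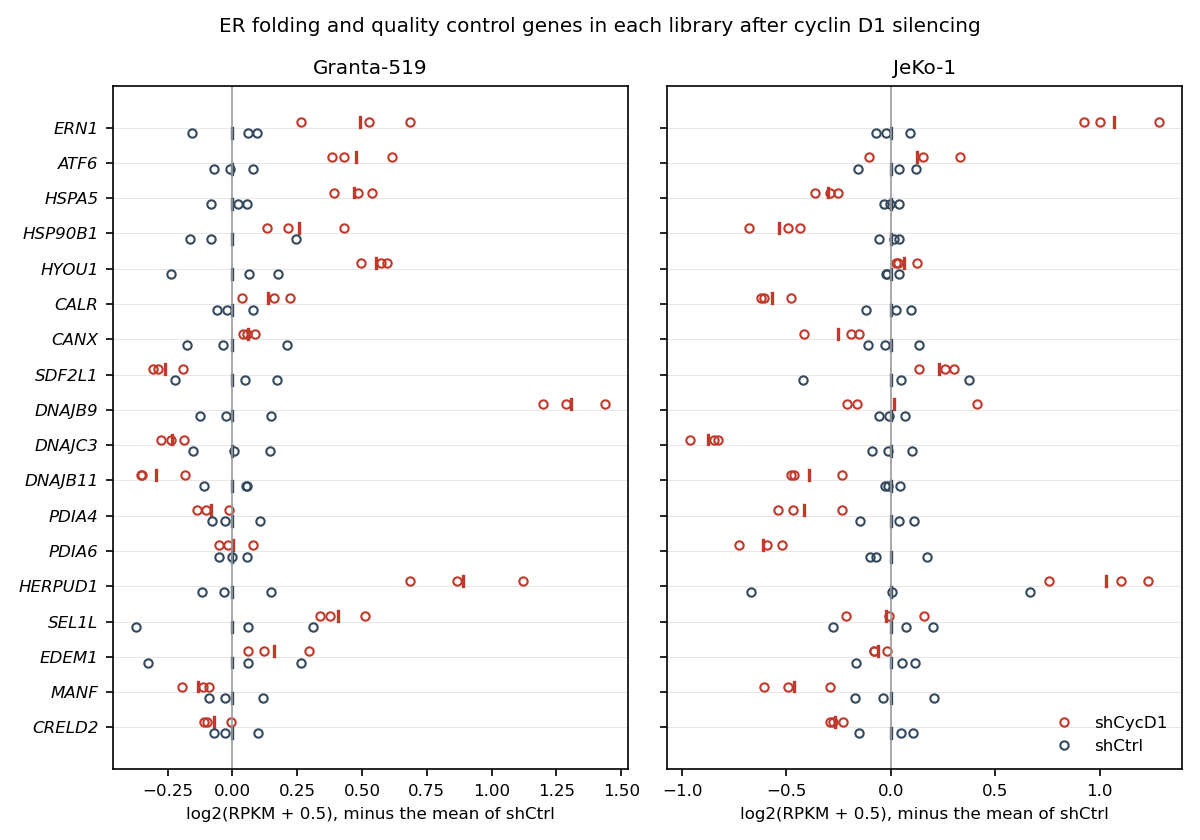
The 18 ER genes are plotted in each library as log2(RPKM + 0.5) minus the mean of the shCtrl libraries of that line, with circles for libraries and bars for group means. Silenced circles of HSPA5 lie right of the controls in Granta-519 and left of them in JeKo-1, those of DNAJB9 lie right in Granta-519 alone, and the JeKo-1 falls were mostly not called with spike-in scaling (1 of 18 fell).

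Of the 3 co-chaperones of the DNAJ family, which work with BiP, 1 rose and 1 fell in Granta-519 (0 fell with spike-in scaling) and 2 fell in JeKo-1. Of all genes tested 22.4% rose and 18.2% fell in Granta-519, and 27.8% fell in JeKo-1. DNAJB9, which recruits BiP to IRE1 and is a target of XBP1, stood at 127.4, 108.0 and 114.9 RPKM in Granta-519 shCycD1, against 42.85, 45.96 and 51.99 RPKM in shCtrl. JeKo-1 libraries stood at 3.76, 3.91 and 6.057 RPKM in shCycD1, against 4.246, 4.394 and 4.664 RPKM in shCtrl. DNAJB9 rose by 1.31 ± 0.10 in Granta-519 (limma adjusted p = 0.000236), the second highest change of the list there, and was at 0.01 ± 0.17 in JeKo-1 (limma adjusted p = 0.953). DNAJC3, known as the PERK inhibitor p58IPK, stood at 3.593, 3.746 and 3.489 RPKM in Granta-519 shCycD1, against 4.35, 3.844 and 4.834 RPKM in shCtrl. In JeKo-1 DNAJC3 stood at 1.528, 1.351 and 1.505 RPKM in shCycD1, against 2.888, 3.072 and 3.361 RPKM in shCtrl. It was at -0.23 ± 0.10 in Granta-519 (limma adjusted p = 0.108) and fell by 0.88 ± 0.10 in JeKo-1 (limma adjusted p = 0.000227). DNAJC3 was the only ER gene whose JeKo-1 fall was called under every alternative that tested it. In Granta-519 DNAJC3 was called lower with quantile normalization (-0.27), library weights (-0.26), the GC correction (-0.24) and without shCtrl replicate 2 (-0.31), and was at 0.45, not called, with spike-in scaling. DNAJB11 fell by 0.29 ± 0.08 in Granta-519 (limma adjusted p = 0.0309) and by 0.39 ± 0.09 in JeKo-1 (limma adjusted p = 0.00574). The Granta-519 call was lost without shCtrl replicate 2, shCtrl replicate 3, shCycD1 replicate 1 or shCycD1 replicate 2 (-0.27 each) and with library weights (-0.18), and turned to 0.46 with spike-in scaling. The JeKo-1 call on DNAJB11 was lost with the GC correction (-0.12) and spike-in scaling (-0.45).

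The disulfide isomerases PDIA4 and PDIA6, which shuffle disulfide bonds in folding proteins, were called lower in JeKo-1 and not in Granta-519. PDIA6 stood at 102.1, 93.38 and 95.62 RPKM in Granta-519 shCycD1, against 93.21, 96.53 and 100.5 RPKM in shCtrl. The JeKo-1 values were 71.58, 78.4 and 82.66 RPKM in shCycD1, against 110.5, 133.8 and 113.0 RPKM in shCtrl. The Granta-519 groups lay within each other (0.00389 ± 0.07, limma adjusted p = 0.97), and PDIA6 fell by 0.61 ± 0.10 in JeKo-1 (limma adjusted p = 0.00113). PDIA4 was at -0.08 ± 0.08 in Granta-519 (limma adjusted p = 0.422) and fell by 0.42 ± 0.11 in JeKo-1 (limma adjusted p = 0.0108). With spike-in scaling both were called higher in Granta-519 (0.77 for PDIA6 and 0.68 for PDIA4). For PDIA4 the difference between the lines did not pass the test.

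HERPUD1 rose in both lines. It encodes a membrane protein of ER-associated degradation and stood at 132.3, 158.3 and 116.7 RPKM in Granta-519 shCycD1, against 70.75, 80.37 and 66.78 RPKM in shCtrl. In JeKo-1 libraries it had 260.0, 187.4 and 237.9 RPKM in shCycD1, against 175.6, 69.19 and 111.0 RPKM in shCtrl. The groups were apart, narrowly in JeKo-1, where shCtrl replicate 1 was high. HERPUD1 rose by 0.89 ± 0.13 in Granta-519 (limma adjusted p = 0.00207) and by 1.03 ± 0.31 in JeKo-1 (limma adjusted p = 0.0212), where the call was lost without shCtrl replicate 3 (1.03) or shCycD1 replicate 1 (0.93) or 3 (0.99) and without a low-value filter (1.03). SEL1L, the scaffold of the HRD1 ubiquitin ligase, was at 0.41 ± 0.17 in Granta-519 (limma adjusted p = 0.0936; called higher without shCtrl replicate 3, at 0.56, with library weights, at 0.32, with the GC correction, at 0.41, and with spike-in scaling, at 1.16) and -0.02 ± 0.15 in JeKo-1 (limma adjusted p = 0.908). EDEM1, a lectin that marks misfolded glycoproteins, was at 0.16 ± 0.15 in Granta-519 (limma adjusted p = 0.445; called higher with spike-in scaling, at 0.92) and -0.06 ± 0.09 in JeKo-1 (limma adjusted p = 0.592).

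MANF and CRELD2, small proteins that ER-stressed cells retain or secrete, were called lower in JeKo-1 and not in Granta-519. MANF was at -0.13 ± 0.08 in Granta-519 (limma adjusted p = 0.213; called higher with spike-in scaling, at 0.64) and fell by 0.47 ± 0.12 in JeKo-1 (limma adjusted p = 0.0123). CRELD2 was at -0.07 ± 0.08 in Granta-519 (limma adjusted p = 0.498; called higher with spike-in scaling, at 0.69) and fell by 0.27 ± 0.10 in JeKo-1 (limma adjusted p = 0.0431). CRELD2 was not called when the filter on low values was dropped (-0.27), nor without any 1 library other than shCtrl replicate 3 (-0.29 to -0.21). The JeKo-1 falls of HSP90B1 (-0.60), CALR (-0.63), PDIA4 (-0.48), PDIA6 (-0.68), MANF (-0.53) and CRELD2 (-0.32) kept their direction and lost their call with spike-in scaling. Their estimates moved little, from -0.54 for HSP90B1 and -0.57 for CALR, while spike-in levels of JeKo-1 spread within each group.

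Of the 6 ER genes with an ERSE match, HSPA5, HSP90B1, CALR, PDIA6 and CRELD2 fell in JeKo-1 and CANX was not called. In Granta-519 HSPA5 rose and the other 5 were not called. With spike-in scaling all 6 were called higher in Granta-519 and 0 were called in JeKo-1. Of the 7 genes with a CARE match, ATF3, CHAC1, SLC3A2 and HERPUD1 rose in JeKo-1, ASNS fell, and CEBPG and SLC7A1 were not called; in Granta-519 CHAC1 and HERPUD1 rose. With spike-in scaling all 7 were called higher in Granta-519, and CHAC1 and HERPUD1 alone in JeKo-1. Of all genes tested, 7702 of 12668 rose with that scaling in Granta-519, and 1707 rose and 1394 fell of 11866 in JeKo-1. Without it 22.4% rose and 18.2% fell in Granta-519, and 36.7% and 27.8% in JeKo-1. The riser DNAJB9 and the fallers PSAT1 and PHGDH have none of the searched words in their windows. The same holds for ATF4, DDIT3, CEBPB, TRIB3 and ERN1, which rose in both lines. It also holds for DNAJC3, DNAJB11, PDIA4, MANF and MTHFD2, which fell in JeKo-1. In JeKo-1 the change of all genes went with the GC content of their transcripts, from a median of -0.26 in the fifth of genes with the lowest GC content to 0.50 in the fifth with the highest, against 0.00 and 0.03 in Granta-519. Median GC content was 51.0% for the ATF4-type genes and 45.9% for the ER genes. With the change corrected for GC content, 6 ATF4-type genes rose and 4 fell, and 3 ER genes rose and 10 fell in JeKo-1. Of all 10887 genes tested there with this correction, 3276 rose and 3473 fell. Plasma cell markers, 8 genes of a cell type rich in ER, summed to 222.1 to 261.2 RPKM in shCycD1 and 297.6 to 397.7 RPKM in shCtrl of JeKo-1, with 3 markers rising and 2 falling of 6 tested and SDC1 under 1 RPKM in every library. In Granta-519 they summed to 976.4 to 1029.8 RPKM in shCycD1 and 969.9 to 1104.3 RPKM in shCtrl, with 3 rising and 2 falling of 8. The part of these markers in the ER result was not tested.

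The difference between the lines was tested as the Granta-519 change minus the JeKo-1 change over 10653 genes. Of the 35 genes, 10 had a higher change in Granta-519 and 2 a lower one, beside 19.3% and 22.6% of all genes (41.9% in either direction). Among the 18 ER genes 7 were higher and 1 lower (median 0.34), and among the 17 ATF4-type genes 3 were higher and 1 lower (median -0.17), beside a median of -0.02 for all genes. The ER genes with a higher change were DNAJB9 (1.29 ± 0.21, limma adjusted p = 0.000508), HSP90B1 (0.80 ± 0.16, limma adjusted p = 0.00221), HSPA5 (0.77 ± 0.09, limma adjusted p = 7.28e-05), CALR (0.71 ± 0.11), DNAJC3 (0.65 ± 0.13), PDIA6 (0.62 ± 0.12) and HYOU1 (0.49 ± 0.13). These 7 were called under every alternative that tested them. Among the alternatives, spike-in scaling raised the median difference over all genes to 0.76 and so favoured higher differences. The ATF4-type genes with a higher change were SLC7A11 (1.25 ± 0.28, limma adjusted p = 0.00445), MTHFD2 (0.42 ± 0.13) and ASNS (0.39 ± 0.12). ERN1 (-0.58 ± 0.18, limma adjusted p = 0.0258) and PSPH (-0.36 ± 0.13, limma adjusted p = 0.0429) were lower, and both calls were lost if JeKo-1 was read as log2 (-0.31 and -0.25). The differences of the 7 factors and effectors ran from -0.60 for ATF3 to -0.07 for CEBPG, with 0 called. Without JeKo-1 shCtrl replicate 1, 5 ATF4-type genes were called lower.

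Spike-in scaling gave a median difference of 0.76 over all genes, and with it 4 ATF4-type genes were higher and 0 lower, and 12 ER genes were higher and 0 lower. With the GC correction (median 0.03 over all genes) 3 ATF4-type genes were higher and 0 lower, and 10 ER genes were higher and 0 lower. With quantile normalization (median 0.01 over all genes) 2 ATF4-type genes were higher and 3 lower. In the main analysis 19.3% of all genes were higher and 22.6% lower. Counts over all genes with spike-in scaling stand in the section on processing. The higher counts over all genes with the other 2 settings are not given, so their member counts have no background here. The call on MTHFD2 was lost with quantile normalization (0.34), the GC correction (0.25) and without Granta-519 shCycD1 replicate 1 (0.36), and that on ASNS without Granta-519 shCtrl replicate 1, shCycD1 replicate 1 or shCycD1 replicate 3 (0.35 each) or JeKo-1 shCtrl replicate 1 (0.34). The ERN1 difference was lost with the GC correction (-0.45) and without Granta-519 shCtrl replicate 1 (-0.55) or 3 (-0.53), Granta-519 shCycD1 replicate 1 (-0.46), or JeKo-1 shCtrl replicate 3 (-0.54) or shCycD1 replicate 3 (-0.47). The PSPH difference was lost with quantile normalization (-0.31), the GC correction (-0.27) and without any 1 library other than Granta-519 shCtrl replicate 1 or JeKo-1 shCtrl replicate 2 or shCycD1 replicate 1 (-0.38 to -0.29).

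**Figure D4:**
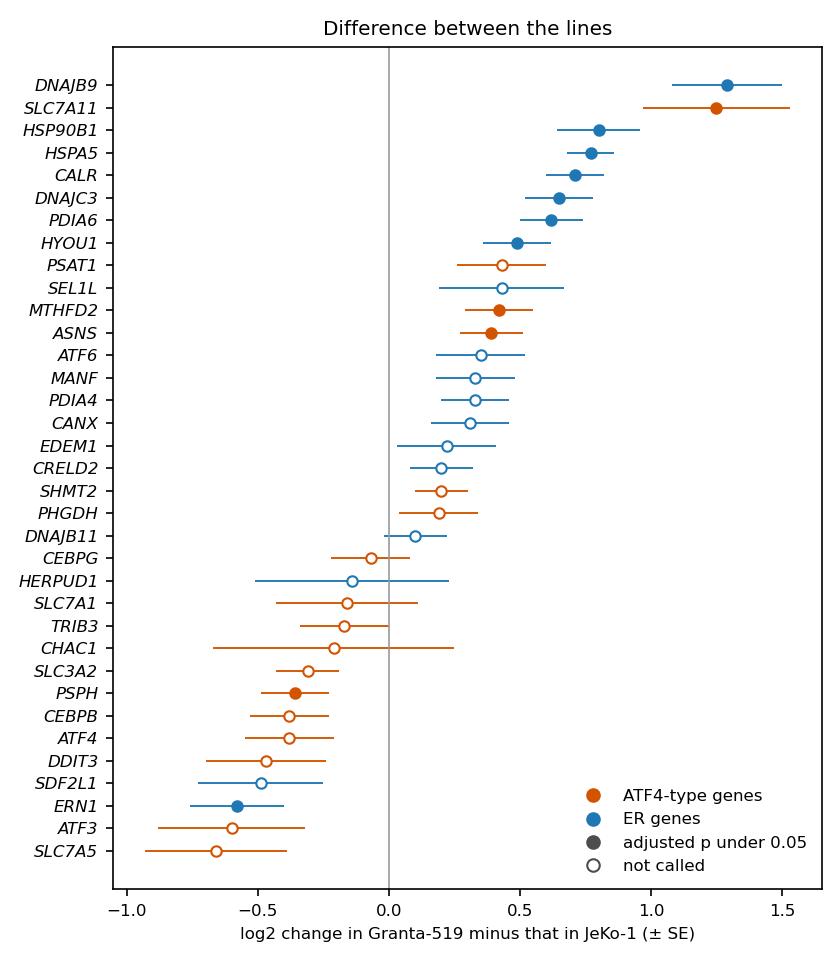
The log2 change in Granta-519 minus that in JeKo-1 is drawn for the 35 genes tested in both lines, with bars of 1 SE and filled circles for a limma adjusted p under 0.05. Of the 8 filled ER circles, 7 lie right of 0, at 0.49 to 1.29, and ERN1 lies left at -0.58, a value of 0.05 with spike-in scaling.

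Further genes of the same pathways were counted from 6 lists of 111 genes, and their counts stand beside 22.4% of all genes that rose and 18.2% that fell in Granta-519, and 36.7% and 27.8% in JeKo-1. Around eIF2, 2 rose and 1 fell of 12 in Granta-519, and 4 rose and 6 fell in JeKo-1. PPP1R15A, which brings the phosphatase that reverses eIF2 phosphorylation and is a target of ATF4, rose by 0.97 (limma adjusted p = 0.00293) and by 1.09 (limma adjusted p = 0.0255). EIF2AK3, which encodes PERK, rose in Granta-519 (0.72, limma adjusted p = 0.0174), and EIF2AK4, which encodes the amino acid sensor GCN2, rose in JeKo-1 (0.62, limma adjusted p = 0.000355). EIF2B3, a subunit of the exchange factor of eIF2, fell by 0.44 (limma adjusted p = 0.0144; 0.13 with spike-in scaling) and by 1.0 (limma adjusted p = 0.000245). The JeKo-1 call on PPP1R15A was lost with the GC correction (0.70), without a low-value filter and without shCtrl replicate 2 (0.93) or 3 (0.84) or shCycD1 replicate 1 (0.93) or 3 (1.15), and the EIF2AK3 call without shCtrl replicate 1 (0.69) or shCycD1 replicate 2 (0.64). EIF2AK4 lost its call with spike-in scaling (0.55), and EIF2B3 in Granta-519 also without shCycD1 replicate 1 (-0.40).

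Other genes listed as targets of ATF4 split again, with 6 rising and 6 falling of 21 in Granta-519, and 8 rising and 9 falling of 20 in JeKo-1. KLHL24 rose in both lines (1.32, limma adjusted p = 0.000854, and 1.63, limma adjusted p = 0.000123). DDIT4, an inhibitor of mTORC1, averaged 152.3 ± 15.01 RPKM in JeKo-1 shCycD1 and 18.65 ± 3.858 RPKM in shCtrl (SD, n = 3 each), a rise of 2.85 (limma adjusted p = 7.61e-06). SHMT1, the cytosolic partner of SHMT2, fell by 1.15 in Granta-519 (limma adjusted p = 0.000376; -0.49, not called, with spike-in scaling), and SLC7A3, an arginine carrier, fell by 1.98 in JeKo-1 (limma adjusted p = 4.33e-06).

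In the branches of IRE1 and ATF6, 2 rose and 2 fell of 12 in Granta-519, and 6 rose and 2 fell of 11 in JeKo-1. MBTPS1, the protease that first cleaves ATF6, rose by 1.20 in JeKo-1 (limma adjusted p = 1.37e-05), and XBP1 fell there by 0.39 (limma adjusted p = 0.0106), not called after the GC correction (-0.23) or spike-in scaling (-0.45). Gene-level values do not separate spliced from unspliced XBP1 RNA. Among other ER folding genes 5 rose and 1 fell of 17 in Granta-519, and 6 rose and 4 fell of 18 in JeKo-1. ERO1L, the oxidase that recharges disulfide isomerases, fell by 0.55 in Granta-519 (limma adjusted p = 0.0103; 0.15 with spike-in scaling) and by 1.39 in JeKo-1 (limma adjusted p = 0.000101). Among other ER degradation genes 9 rose and 4 fell of 18 in Granta-519, and 7 rose and 3 fell of 18 in JeKo-1. They include ERLEC1 in Granta-519 (0.65, limma adjusted p = 0.000477) and MAN1B1 in JeKo-1 (1.25, limma adjusted p = 2.64e-05), both of glycoprotein quality control, and DERL3, which fell by 1.10 in Granta-519 (limma adjusted p = 0.00032; -0.35, not called, with spike-in scaling).

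Of 22 genes of protein entry into the ER, 8 rose (36.4%) and 5 fell (22.7%) in Granta-519, and 4 rose (18.2%) and 14 fell (63.6%) in JeKo-1. With spike-in scaling 16 rose and 0 fell in Granta-519, and 0 rose and 5 fell in JeKo-1. The difference was called higher in 14 and lower in 1 (median 0.58), beside 19.3% and 22.6% of all genes. SRPR, a subunit of the signal recognition particle receptor, rose in both (0.59, limma adjusted p = 0.00138, and 0.66, limma adjusted p = 0.000515; the JeKo-1 call was lost with spike-in scaling, at 0.60). SSR1, a translocon-associated protein, fell by 0.39 (limma adjusted p = 0.00593; 0.38 with spike-in scaling) and by 1.03 (limma adjusted p = 0.000176). Over the 6 lists 32 of 102 rose (31.4%) and 19 fell (18.6%) in Granta-519, while in JeKo-1 the counts were 35 (34.7%) and 38 (37.6%) of 101, so that falls in Granta-519 and rises in JeKo-1 were near the shares of all genes. With spike-in scaling 72 rose and 0 fell in Granta-519, and 12 rose and 16 fell in JeKo-1, beside 60.8% and 1.16% of all genes in Granta-519 and 14.4% and 11.7% in JeKo-1. Retrotransposed or duplicated copies are known for ATF4, HSP90B1 and PSPH, and how reads shared with such copies were counted is not given in the sources used here.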

How the data were processed

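RNA of 12 libraries was measured with a stranded mRNA kit, per the labels' protocols, in 4 groups of 3, read off the titles. Each line has 1 gene table titled RPKM, whose values the authors had put on a log scale before they were deposited, taken here as natural log (ln) of RPKM + 1, a base that no file header states. FastQC, TopHat2 2.1.1, limma 3.9 and the builds GRCh37 and hg19 come from the submitters' processing notes. The read counter is not given in the sources used here. For Granta-519 the natural log made 82.0 to 84.0% of low values of genes under 5000 bases whole multiples of 1 step (tolerance 0.1), against 41.6 to 49.2% for other bases. For JeKo-1 the same search singled out no base, with 26.6 to 30.6% over natural log, log2 and log10. The natural log is inferred there from spike-ins: their SD of logs over that of Granta-519 had a median of 0.972 over 36 library pairs, against 0.711 for log2 and 2.169 for log10.

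Values were exponentiated, and 1 row per symbol was used, the one with the highest mean (554 symbols stand on more rows in each table). Each line was fitted on log2(RPKM + 0.5) with limma (version 3.58.1, R 4.3.3; moderated with an intensity trend), using genes at 1 RPKM or more in at least 3 of 6 libraries, with Benjamini-Hochberg adjustment; this scale understates changes of low genes. A fit of all 12 libraries with a mean per group gave the difference between the lines. P-values measure the spread between the libraries of a group, and separate cultures are not described beyond the word replicate. The steps were run on simulated data with noise drawn separately for each gene and library. That simulation held no library, GC or spike-in effect, so it cannot show how the steps handle them. Alternatives were pseudocounts of 0.1 and 1, no filter, a mean of 5 RPKM or more, quantile normalization, spike-in scaling, library weights, the replicate block, a correction for transcript GC content (known for 89.5% of symbols), a joint fit, JeKo-1 read as log2, and leaving out each library. The members, their 2 groups and smaller lists, the other gene lists and the tests were chosen with earlier results of these data known. All 36 members are described; of other lists at most 2 risers and 2 fallers per line with the largest called changes are named. Proteins of the members were not analysed here.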

Additional observations from a re-analysis of the deposited data

Results flagged for a closer look

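For 12 genes the change with cyclin D1 silencing differed between Granta-519 and JeKo-1 by the test of the difference itself (limma adjusted p under 0.05 over all genes tested in both lines; values are the log2 change in Granta-519 minus that in JeKo-1). DNAJB9 had 1.29, SLC7A11 1.25, HSP90B1 0.80, HSPA5 0.77, CALR 0.71, DNAJC3 0.65, PDIA6 0.62, HYOU1 0.49, MTHFD2 0.42 and ASNS 0.39. PSPH had -0.36 and ERN1 -0.58. Of the 12 calls, 8 (those of SLC7A11, HSPA5, HSP90B1, HYOU1, CALR, DNAJB9, DNAJC3 and PDIA6) were kept under every alternative that tested them. All 8 are higher differences, which spike-in scaling favoured, with a median difference of 0.76 over all genes. No sample group of 4 or more exists here, so single libraries were not tested as outliers.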

How the results depend on the processing

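Of the 17 Granta-519 calls on genes of the list, 9 held under every alternative that tested them (DDIT3, CEBPB, CHAC1, TRIB3, ATF6, HSPA5, HYOU1, DNAJB9 and HERPUD1), of the 25 JeKo-1 calls 7 (DDIT3, CEBPB, CHAC1, PSAT1, PHGDH, ERN1 and DNAJC3), and of the 12 differences 8. Spike-in scaling moved the median over all genes from 0.03 to 0.74 in Granta-519 and from -0.02 to 0.76 in the difference. It thus favoured rises and higher differences, and the lowest Granta-519 change of the list was -0.64. The kept calls of Granta-519 and of the difference, all positive, therefore do not compare rises with falls. Read depth is not known, so what it limits cannot be stated. Deviations of same-numbered libraries correlated at 0.006, -0.124 and 0.033 in Granta-519, which shows no pairing by number there. In JeKo-1 they correlated at 0.187, 0.095 and 0.103. Log2 spike-in levels of JeKo-1 replicates 1, 2 and 3 were -0.377, 0.043 and 0.241 in shCtrl, and -0.336, 0.005 and 0.425 in shCycD1. The replicate block gave 4901 rises and 3806 falls over all genes in JeKo-1, against 4357 and 3303 without it. The titles give replicate numbers only, and the main fit used no pairing. Spike-in scaling was fitted without the replicate block only. Whether the JeKo-1 calls lost with that scaling would be kept with the block was not tested. With the replicate block, 4 ATF4-type genes rose and 3 fell in Granta-519 and 9 rose and 6 fell in JeKo-1, 5 ER genes rose and 1 fell in Granta-519 and 2 rose and 10 fell in JeKo-1, and 4 ATF4-type and 0 ER differences were lower. Calls on ATF4 (adjusted p = 0.0564 by limma), ERN1 (0.0669), SLC7A11 (0.0629) and SLC7A5 (0.0572) in Granta-519 and on the ERN1 difference (0.054) were not made with the block, those on SLC7A5 and CANX in JeKo-1 were made with it, and DNAJB11 in Granta-519 was not called with the block and the GC correction together (-0.30).

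With spike-in scaling, 7702 genes rose and 147 fell in Granta-519, against 2840 and 2303 in the main analysis. In JeKo-1 1707 rose and 1394 fell with it, against 4357 and 3303, and 3206 differences were higher and 145 lower, against 2053 and 2410. With it 13 ATF4-type and 15 ER genes rose and 0 of either fell in Granta-519, 3 ATF4-type genes rose and 2 fell and 1 ER gene fell in JeKo-1, and of the differences 12 ER genes were higher, 0 ATF4-type lower and 0 ER lower. Library weights gave 3579 falls over all genes and 2 ER falls in Granta-519, and differences that were higher in 5 and lower in 3 ATF4-type genes and lower in 2 ER genes. At a mean of 5 RPKM or more, where fewer genes are tested, 2 ATF4-type genes fell in Granta-519, 2874 genes and 1 ER gene rose in JeKo-1, and 1487 differences over all genes and 0 of ER genes were lower. Quantile normalization gave 2 ER falls in Granta-519 and 3 lower ATF4-type differences. The GC correction gave 3 ER falls in Granta-519 (0 with the block added), 1545 lower differences over all genes, and 0 lower ATF4-type and 0 lower ER differences, as with the block added. Reading JeKo-1 as log2 gave 0 lower ATF4-type and 0 lower ER differences, no low-value filter gave 1 ER rise in JeKo-1, and a pseudocount of 0.1 gave 2 lower ATF4-type differences. With 1 library left out at a time, ER falls in Granta-519 numbered 0 to 1, ATF4-type falls in JeKo-1 3 to 5 (3 without shCycD1 replicate 2), ER rises in JeKo-1 1 to 2, higher ATF4-type differences 1 to 4 (1 without Granta-519 shCycD1 replicate 1), lower ATF4-type differences 0 to 5 (5 without JeKo-1 shCtrl replicate 1) and lower ER differences 0 to 2. With spike-in scaling the sign turned in Granta-519 for CEBPG 0.69, PSAT1 0.16, SHMT2 0.36, SLC7A5 0.46, SLC3A2 0.75, SLC7A1 0.68, SDF2L1 0.50, DNAJC3 0.45, DNAJB11 0.46, PDIA4 0.68, MANF 0.64, CRELD2 0.69, EIF2B3 0.13, ERO1L 0.15, SRP68 0.37, SSR1 0.38, UFD1L 0.32 and WFS1 0.42. With library weights the sign turned in Granta-519 for CEBPG 0.00117. With the GC correction the sign turned in Granta-519 for PDIA6 -0.02 (the same values with the block added). With library weights the sign turned in JeKo-1 for CEBPG 0.01. With the GC correction the sign turned in JeKo-1 for CEBPG 0.08, CTH 0.00313, SLC7A5 -0.10, SLC3A2 -0.06, SLC7A1 -0.14, HYOU1 -0.24, SDF2L1 -0.39 and SEL1L 0.21 (the same values with the block added). With quantile normalization the sign turned in JeKo-1 for HYOU1 -0.01 and DNAJB9 -0.10. With spike-in scaling the sign turned in JeKo-1 for DNAJB9 -0.05. With spike-in scaling the sign turned in the difference for PSPH 0.42 and ERN1 0.05. Leaving out a library turned the sign in Granta-519 for ATF3 (-0.05 to 0.16), SLC3A2 (-0.06 to 0.04), SLC7A1 (-0.23 to 0.02), CANX (-0.03 to 0.17), PDIA6 (-0.03 to 0.03) and EDEM1 (-0.00353 to 0.29), none of them called in Granta-519. Leaving out a library turned the sign in JeKo-1 for CEBPG (-0.10 to 0.10), SLC7A1 (-0.08 to 0.27), DNAJB9 (-0.19 to 0.12) and SEL1L (-0.16 to 0.08), none of them called in JeKo-1. Where no value shows it, the cause was not tested. Pseudocounts changed no call on a gene of the list within a line.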

Other observations

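Single libraries of a group stood apart for many genes of the list at once, a count made after the values had been seen and with no test. JeKo-1 shCtrl replicate 1 was the highest of the 3 control libraries for 11 of 18 ATF4-type genes (61.1%), beside 35.8% of all tested genes. Among them CHAC1 stood at 4.583 RPKM in that library, beside 1.441 and 1.54 RPKM in the other controls, and DDIT3 at 54.86 RPKM, beside 32.49 and 37.8 RPKM. HERPUD1, an ER gene, stood at 175.6 RPKM there, beside 69.19 and 111.0 RPKM. Granta-519 shCtrl replicate 3 was the highest control for 12 of 18 ER genes (66.7%), beside 43.7% of all tested genes. The cause was not tested.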
